A study of Homo sapiens with 5 samples.

Results

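The genes described here are 10 immediate early genes, FOS, FOSL1, FOSL2, JUN, JUNB, JUND, EGR1, IER2, IER5 and MYC. They were chosen by name, as serum-responsive genes that report the state of a culture. Earlier results of these data were known when they were chosen. All 10 were among the 16677 genes of the deposited count table. All 10 also passed the filter on low counts and were among the 16310 genes tested. The study sequenced messenger RNA from HEK293, an established line of human embryonic kidney cells, kept in ordinary culture. There were 2 Control libraries, labelled wild type, and 3 libraries labelled rs11607019, after a T-to-C change that the series places in SIRT3. They are called variant libraries below. The labels name no agent, time point or clone for either group, and do not say whether libraries came from separate clones or cultures. The p-values therefore measure the spread between these libraries, which may be technical.

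Immediate early genes are transcribed within minutes of a growth factor, fresh serum or stress reaching a cell, with no need for new protein synthesis. The Ras-ERK cascade acts on them through serum response factor (SRF) and its ETS-family partners, and cyclic AMP and stress kinases act through CREB, ATF and JUN proteins. Most of their mRNAs are short-lived, so their levels follow recent changes in a culture. FOS and JUN proteins pair through leucine zippers into the AP-1 transcription factor, EGR1 is a zinc finger factor, and MYC pairs with MAX to drive growth genes.

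The promoters of 4 members are shown for the elements known to bind factors that answer to serum, cyclic AMP and kinases. EGR1 and FOS were the members whose groups did not overlap, JUNB had the widest gap between the Control libraries, and JUND is a JUN gene whose order of libraries differed from that of JUNB. The sequences are from RefSeq (GRCh38.p14), written 5′ to 3′ on the strand of the gene, and stop before the first base that GENCODE annotates as exon, so that of FOS is shorter. The capitals mark the CArG box that SRF binds, the core TGACG of the cyclic AMP response element on either strand, and TATAAA. The windows are chr5:138465229-138465478 (plus strand) for EGR1, chr14:75278578-75278773 (plus) for FOS, chr19:12791236-12791485 (plus) for JUNB and chr19:18281623-18281872 (minus) for JUND.
EGR1: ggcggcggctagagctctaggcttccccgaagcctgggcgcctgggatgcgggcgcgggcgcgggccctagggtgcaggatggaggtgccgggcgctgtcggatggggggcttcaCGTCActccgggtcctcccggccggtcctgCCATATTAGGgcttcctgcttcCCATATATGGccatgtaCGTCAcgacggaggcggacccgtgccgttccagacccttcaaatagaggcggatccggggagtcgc
FOS: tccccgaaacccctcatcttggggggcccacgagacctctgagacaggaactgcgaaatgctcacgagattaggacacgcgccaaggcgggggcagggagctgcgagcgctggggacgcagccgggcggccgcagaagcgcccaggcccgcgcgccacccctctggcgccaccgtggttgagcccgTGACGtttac
JUNB: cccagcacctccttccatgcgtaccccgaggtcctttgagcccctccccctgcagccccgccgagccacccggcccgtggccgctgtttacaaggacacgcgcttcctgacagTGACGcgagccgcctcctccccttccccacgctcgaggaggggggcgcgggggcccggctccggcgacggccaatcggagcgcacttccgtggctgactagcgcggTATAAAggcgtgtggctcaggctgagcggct
JUND: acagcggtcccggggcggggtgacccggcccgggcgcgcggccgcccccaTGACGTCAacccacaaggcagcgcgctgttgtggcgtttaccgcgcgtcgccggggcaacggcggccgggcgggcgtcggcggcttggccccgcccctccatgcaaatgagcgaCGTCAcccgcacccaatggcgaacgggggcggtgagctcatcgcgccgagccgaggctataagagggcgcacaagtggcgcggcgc

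RefSeq promoter windows matched 8 of the 10 members, and both strands of their 250 bases before the start were searched. The CArG box matched at 2 places in EGR1, starting 105 and 83 bases before its start, and in no other of the 8 windows. It matched in 1.14% of 27305 promoters of the same length. Bases further upstream were not searched, so a window without a match does not show that the gene lacks the box. The core TGACG was present in 7 of the 8 (FOS, FOSL2, JUN, JUNB, JUND, EGR1 and IER2), against 21.7% of all promoters. The windows of JUN and IER2 start inside an annotated exon, and the promoters compared were not matched for GC content. The full palindrome TGACGTCA, which holds that core on both strands, was in JUND, against 1.77% of all promoters. The related site TGACATCA was in JUN, 67 bases before its RefSeq start, against 2.45%. TATAAA was in FOS, in the part not printed, and in JUNB (11.1% of all promoters) and the GC box GGGCGG in FOS, FOSL2, JUN, JUND and IER2 (42.3%). The other motifs searched, TGACTCA or TGAGTCA (4.16% of all promoters), GCGGGGGCG or GCGTGGGCG (5.3%), CACGTG (6.49%) and CCGGAAGT (3.64%), matched in none of the 8 windows. A match describes the letters of the window and is not evidence of binding.

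Library totals ran from 17122569 to 17596084 counts. SIRT3 stood at 28.9 and 29.3 CPM (counts scaled to a common library size with TMM factors, the unit of levels below) in Control 1 and Control 2. It stood at 26.5, 15.8 and 30.2 CPM in variant 1, variant 2 and variant 3. Of 9 genes listed as expressed in HEK293, KRT8, KRT18, PAX2 and LIN28B were in the table, and NEFL, NEFM, INA, EYA1 and CDH2 were not among the rows used here. Of the fibroblast markers 2 of 8 were in the table, COL1A1 and COL3A1, with a summed level of 30.6 to 48.2 CPM over the libraries. None of the 7 blood cell markers and none of the 5 endothelial markers were. For the data as a whole, edgeR's quasi-likelihood test with Benjamini-Hochberg adjustment found 0 of 16310 genes at an adjusted p under 0.05 (0.0%), and 1243 at an unadjusted p under 0.05. DESeq2 found 31 genes past the adjusted threshold and limma-voom 0, and none of them was among the 10 members.

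None of the 10 immediate early genes passed the adjusted threshold between the groups, and in 8 of them the groups overlapped. EGR1 and FOS were the members in which all 3 variant libraries lay above both Control libraries. After the correction for GC content and length described below, this held for EGR1 but not for FOS. JUN, JUND and MYC stood above their 5-library mean in Control 1, where the other 7 members stood below theirs. Variant 3 held the highest level of 5 members and the lowest level of MYC. In these bulk libraries a smaller share of cells with a transcript and less of it per cell cannot be told apart.

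**Figure D1:**
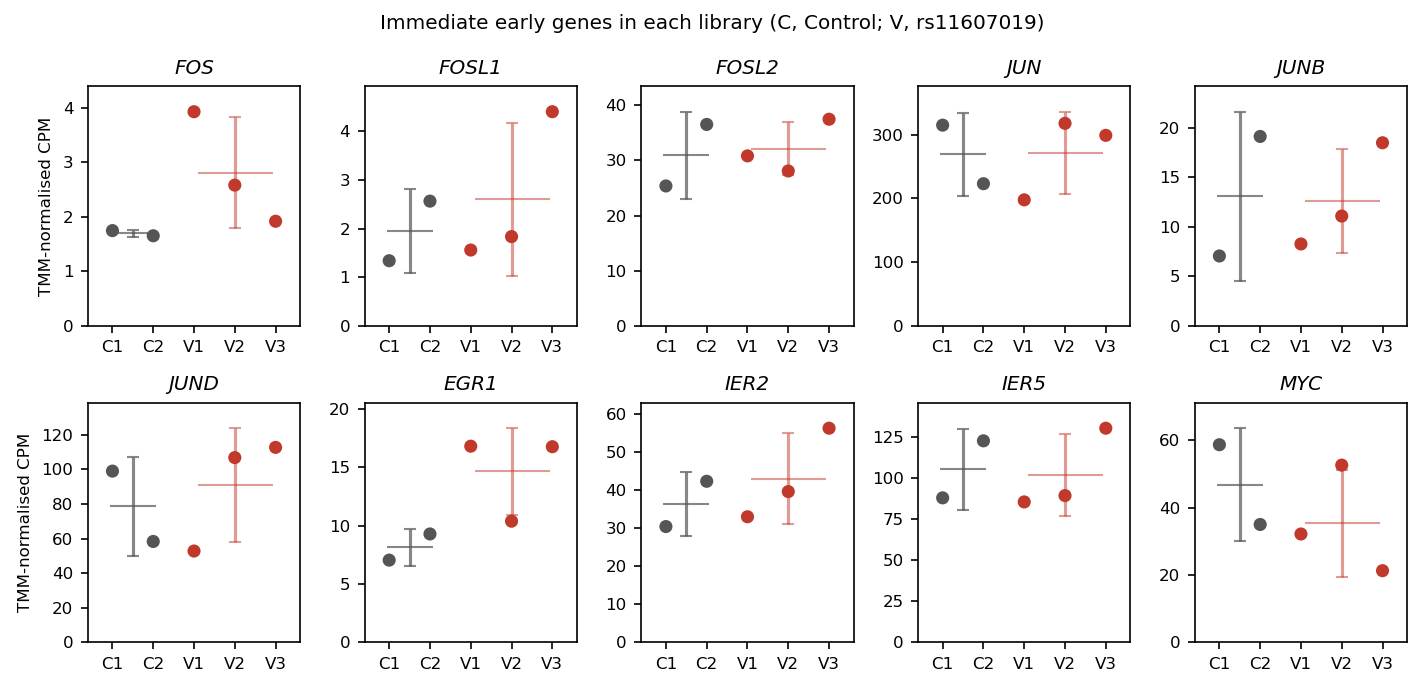
TMM-normalised CPM (vertical axis, from 0) of each immediate early gene in the Control libraries (C1, C2, grey) and the variant libraries (V1 to V3, red), with group mean and SD as horizontal line and error bars. In FOS and EGR1 all red points lie above both grey points, and in JUNB the grey points lie 2.71-fold apart.

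Levels between genes were compared per kilobase of annotated exon, as CPM per kb averaged over the 5 libraries. The exons of all annotated transcripts of a gene were merged, to 3238 bases for FOS. A level is therefore understated where part of that length is not in the transcripts these cells make. JUN was the most abundant member at 76.4 ± 15.8 CPM per kb (SD, n = 5), and JUND followed at 46.1 ± 15.1. IER5 stood at 24.6 ± 5.14, MYC at 13.3 ± 5.12, IER2 at 13.1 ± 3.30 and JUNB at 7.03 ± 3.11 CPM per kb. FOSL2 stood at 4.42 ± 0.734, EGR1 at 3.85 ± 1.43, FOSL1 at 1.24 ± 0.659 and FOS at 0.731 ± 0.292 CPM per kb. Of the 9 steps in this order, 4 were smaller than the larger SD of the genes beside them: MYC and IER2, JUNB and FOSL2, FOSL2 and EGR1, and FOSL1 and FOS. FOS and EGR1, which serum induces sharply from a low resting level in textbook accounts, stood in the lower part of the order with FOSL1 and FOSL2. JUN, also chosen as a serum-responsive gene, stood at the top.

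The FOS family supplies the partners of JUN proteins in AP-1. FOS (chromosome 14, 75278774 to 75282230, GENCODE release 29 on GRCh38), the founding member, had 30 and 29 counts in Control 1 and Control 2. It had 68, 45 and 34 counts in variant 1, variant 2 and variant 3. In CPM these were 1.75 and 1.65 against 3.93, 2.58 and 1.92. All variant libraries lay above the Control libraries, but variant 3 lay close to them, and its 95% Wilson interval of 1.39 to 2.70 CPM before TMM scaling overlapped that of Control 1, 1.23 to 2.50. Such intervals cover counting error alone. Its fitted log2 fold change was 0.72 (SE 0.39, edgeR adjusted p 0.682), and it was 0.40 without variant 1.

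FOSL1 (chromosome 11, 65892049 to 65900573), which encodes FRA1, stood at 1.34 and 2.57 CPM in the Control libraries and at 1.56, 1.84 and 4.41 CPM in variant 1, variant 2 and variant 3. Its groups overlapped, with Control 1 lowest and variant 3 highest at 78 counts. The log2 fold change was 0.41 (SE 0.51, edgeR adjusted p 0.858), and it was −0.20 without variant 3, 0.95 without Control 2 and 0.02 without Control 1. FOSL2 (chromosome 2, 28392448 to 28417312), which encodes FRA2, stood at 25.4 and 36.5 CPM in the Control libraries. It stood at 30.8, 28.1 and 37.4 CPM in the variant libraries. The 2 groups covered nearly the same range, with Control 1 lowest and variant 3 highest. Its log2 fold change was 0.05 (SE 0.22, edgeR adjusted p 0.964).

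FOSL2 made up most of the FOS family per length in every library. Its share of the summed CPM per kb of FOS, FOSL1 and FOSL2 ran from 64.1% in variant 3 to 73.9% in Control 1. FOS made up 11.3% and 7.33% of the family in the Control libraries and 19.1%, 14.01% and 7.27% in variant 1, variant 2 and variant 3. Variant 3 and Control 2 thus had the lowest FOS shares of the 5 libraries, nearly equal and from only 34 and 29 FOS counts. The FOS level of variant 3 lay above both Control libraries. FOSL1 made up 28.6% in variant 3 and between 13.03% and 19.5% in the other libraries. FOSB, the remaining family gene, which is not a member and was named after its values were seen, stood at 1.17 and 3.48 CPM in the Control libraries. It stood at 3.99, 2.99 and 5.87 CPM in the variant libraries.

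JUN proteins can pair with each other or with FOS proteins. JUN (chromosome 1, 58780788 to 58784327) stood at 315 and 223 CPM in the Control libraries and at 198, 318 and 299 CPM in the variant libraries. Control 1, variant 2 and variant 3 were high and Control 2 and variant 1 were low, so the groups overlapped over their whole range. The fit in edgeR gave a log2 fold change of 0.01 (SE 0.22, 95% confidence interval −0.49 to 0.52; adjusted p 0.992). JUND (chromosome 19, 18279760 to 18281622), the member of the family known for steady expression in resting cells, had the same high and low libraries. It stood at 98.9 and 58.3 CPM in the Control libraries and at 52.8, 107 and 113 CPM in the variant libraries, with a log2 fold change of 0.21 (SE 0.34). Its adjusted p was 0.895 in edgeR's test, and the log2 fold change was −0.12 without Control 2, 0.64 without Control 1 and 0.48 without variant 1.

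JUNB (chromosome 19, 12791496 to 12793315), which can oppose JUN in the control of growth, showed another order. It stood at 7.05 CPM in Control 1 and 19.1 CPM in Control 2, from 121 and 335 counts. The variant libraries stood at 8.26, 11.1 and 18.5 CPM, between the Control libraries. Only 1.94% of the tested genes had as wide a gap between the Control libraries. The biological coefficient of variation fitted for JUNB was 34.5%, where the median over tested genes was 19.3%. The log2 fold change was −0.05 (SE 0.44, edgeR adjusted p 0.985), and it was −0.60 without Control 1 and 0.84 without Control 2. Its annotated exons share 259 bases with HOOK2 on the opposite strand, which stood at 24.7 and 35.6 CPM in the Control libraries and at 27.2, 39.9 and 33.7 CPM in the variant libraries. Whether the counts used the strand is not given in the sources used here.

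Per length, the summed JUN family stood at 146 and 105 CPM per kb in the Control libraries and at 88.7, 153 and 155 CPM per kb in the variant libraries. JUN made up between 54.4% and 62.9% of it, and JUND between 29.9% and 39.005%. JUNB ranged from 2.66% in Control 1 to 10.02% in Control 2. The ratio of JUN to JUNB per length was 22.9 in Control 1 and 5.999 in Control 2. It was 12.3, 14.7 and 8.32 in the variant libraries, again inside the Control range. The JUN family exceeded the summed FOS family by 14.0-fold in variant 1 to 30.4-fold in Control 1.

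**Figure D2:**
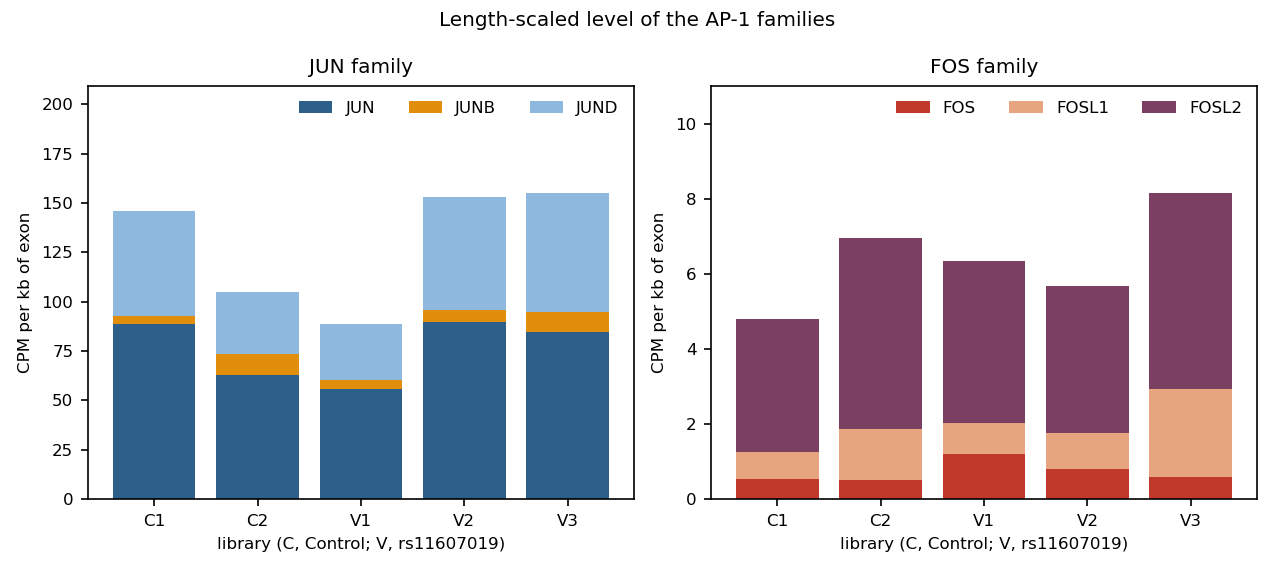
Stacked CPM per kb of exon (vertical axes, from 0, on different scales) of JUN, JUNB and JUND (left) and of FOS, FOSL1 and FOSL2 (right) in each Control (C) and variant (V) library. The JUN family is low in C2 and V1, and the FOS family ranges from 4.79 CPM per kb in C1 to 8.16 CPM per kb in V3.

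EGR1 (chromosome 5, 138465490 to 138469315), the zinc finger factor with CArG boxes in the promoter shown above, had the smallest p of the members. It had 121 and 163 counts in the Control libraries, or 7.05 and 9.30 CPM. It had 291, 181 and 297 counts in the variant libraries, or 16.8, 10.4 and 16.8 CPM. All variant libraries lay above the Control libraries, with variant 2 close to Control 2. Group means were 8.17 ± 1.59 CPM (SD, n = 2) and 14.7 ± 3.70 CPM (SD, n = 3). The fit in edgeR gave a log2 fold change of 0.84 (SE 0.29, 95% confidence interval 0.20 to 1.48; adjusted p 0.616), and the adjusted p in DESeq2 was 0.316. Over all alternatives that adjusted p ran from 0.316 to 0.998. EGR1 was the single member at an unadjusted p under 0.05, 1 of 10, beside 7.62% of all tested genes (4.11% higher). It was above that limit without Control 1, where its log2 fold change was 0.66. FOS was under it without variant 3, and MYC, lower in the variant, without variant 2.

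IER2 (chromosome 19, 13150415 to 13154908) and IER5 (chromosome 1, 181088712 to 181092899) encode related nuclear proteins that act as transcriptional regulators. IER2 stood at 30.4 and 42.3 CPM in the Control libraries and at 33.0, 39.6 and 56.3 CPM in the variant libraries. Variant 3 was above all others and Control 1 was lowest, so the groups overlapped (log2 fold change 0.24, SE 0.25, edgeR adjusted p 0.825). That fold change was 0.50 without Control 2, 0.02 without Control 1 and −0.0027 without variant 3. Exons of IER2 share 946 bases with an antisense gene, AC011446.2, which was not among the rows used here. IER5 stood at 88.01 and 123 CPM in the Control libraries and at 85.5, 89.4 and 130 CPM in the variant libraries. Control 2 and variant 3 were high and the other 3 libraries lay close together. The log2 fold change of IER5 was −0.05 (SE 0.22, edgeR adjusted p 0.968), and it was −0.27 without Control 1 and 0.21 without Control 2.

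MYC, a helix-loop-helix leucine zipper factor that drives ribosome synthesis and growth, stood at 58.7 and 35.02 CPM in the Control libraries. It stood at 32.2, 52.6 and 21.3 CPM in the variant libraries. Control 1 and variant 2 were high and variant 3 was lowest, from 1007, 917 and 377 counts. The fit in edgeR gave a log2 fold change of −0.41 (SE 0.36, 95% confidence interval −1.22 to 0.41; adjusted p 0.788). It was 0.01 without Control 1, −0.73 without Control 2, −0.81 without variant 2 and −0.14 without variant 3. MYC had the widest range over libraries of the members with a mean of at least 10 CPM, 1.46 on the log2 scale.

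**Figure D3:**
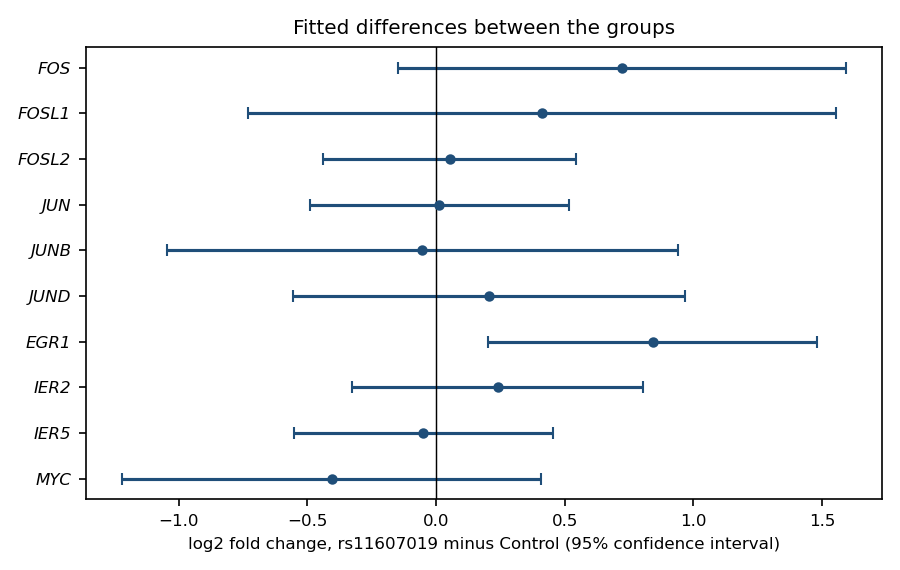
Fitted log2 fold change of the variant against the Control libraries (horizontal axis) for each immediate early gene, with its 95% confidence interval from edgeR's quasi-likelihood fit. The interval of EGR1 (0.20 to 1.48, not adjusted for the number of genes) lies above 0, and those of the other 9 genes include 0.

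Of the 10 members, 7 had a log2 fold change above 0 and 3 below 0, with a median of 0.13, where all tested genes had a median of 0.003. The median was −0.05 once GC content and length were corrected for, with 5 members on each side of 0. It was 0.42 without Control 2, 0.02 without Control 1, 0.30 without variant 1 and −0.07 without variant 3. Adjusted p-values of the members in edgeR's test ran from 0.616 to 0.992. The groups did not overlap in 2 members, both higher in the variant, beside 11.8% of tested genes higher, 13.0% lower and 24.8% in either direction. With 10 members, counts of 1 and 2 are near these shares. Of the 8 members with a mean of at least 100 counts, 4 (JUNB, JUND, EGR1 and MYC) had a highest library at least 2-fold above the lowest, beside 11.0% of 11550 such genes. The Control libraries alone were at least 1.3-fold apart in 9 of 10 members, a limit chosen after the values were seen, beside 35.1% of tested genes.

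The direction of the gap between the Control libraries was not shared. FOSL1, FOSL2, JUNB, EGR1, IER2 and IER5 were higher in Control 2, by 1.32-fold (EGR1) to 2.71-fold (JUNB). JUN, JUND and MYC were lower in Control 2, at 0.708, 0.589 and 0.597 times their level in Control 1. FOS was at 0.946 times. Control 1 held the lowest level of 5 of the 10 members, where it was lowest for 22.1% of all tested genes. Variant 3 held the highest level of 5, beside 18.9% of all tested genes. The median deviation of the members from their 5-library mean was −0.32 in Control 1, 0.002 in Control 2, −0.25 in variant 1, −0.04 in variant 2 and 0.41 in variant 3 on the log2 scale. The 4 HEK293 markers in the table had a summed level of 372 CPM in Control 1 and 514 CPM in variant 3, with 513, 454 and 438 CPM in Control 2, variant 1 and variant 2. KRT8 made up most of that sum, at 226 CPM in Control 1 and 371 CPM in variant 3. LIN28B ran the other way, at 79.5 and 27.3 CPM in the same libraries, and PAX2 stood at 21.04 and 21.97 CPM. The 2 fibroblast markers had a summed level of 30.7 and 48.2 CPM in Control 1 and Control 2 and of 30.6, 41.6 and 47.6 CPM in the variant libraries, so that variant 1 was lowest and Control 2 highest. The part of either in the members' order was not tested.

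The GC content of transcripts moved with this order of libraries. Over 10854 genes of the same libraries, GC content and a library's deviation had a Spearman correlation of −0.538 in Control 1 and 0.476 in variant 3. Genes of a library are not independent, and this is a description. It was 0.0724 in Control 2, −0.128 in variant 1 and 0.247 in variant 2. The members had a GC content of 49.8% (IER5) to 69.7% (JUND), above the median of 48.7% over the genes of the table. After the correction for GC content and length, Control 1 held the lowest level of 4 members, and Control 1 and variant 3 each held the highest level of 3. The median deviations became −0.18 in Control 1, −0.04 in Control 2, −0.25 in variant 1, −0.11 in variant 2 and 0.32 in variant 3. Variant 1 was thus lowest, where Control 1 was lowest before the correction. The gap of JUNB between the Control libraries was nearly as wide, from −0.61 to 0.68 after correction and from −0.73 to 0.69 before. JUN and JUND kept their positive deviation in Control 1, at 0.39 each. The groups of FOS overlapped after the correction, at −0.27 in variant 3 and −0.25 in Control 1. Those of EGR1 stayed apart, at −0.15 in variant 2 and −0.33 in Control 2.

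**Figure D4:**
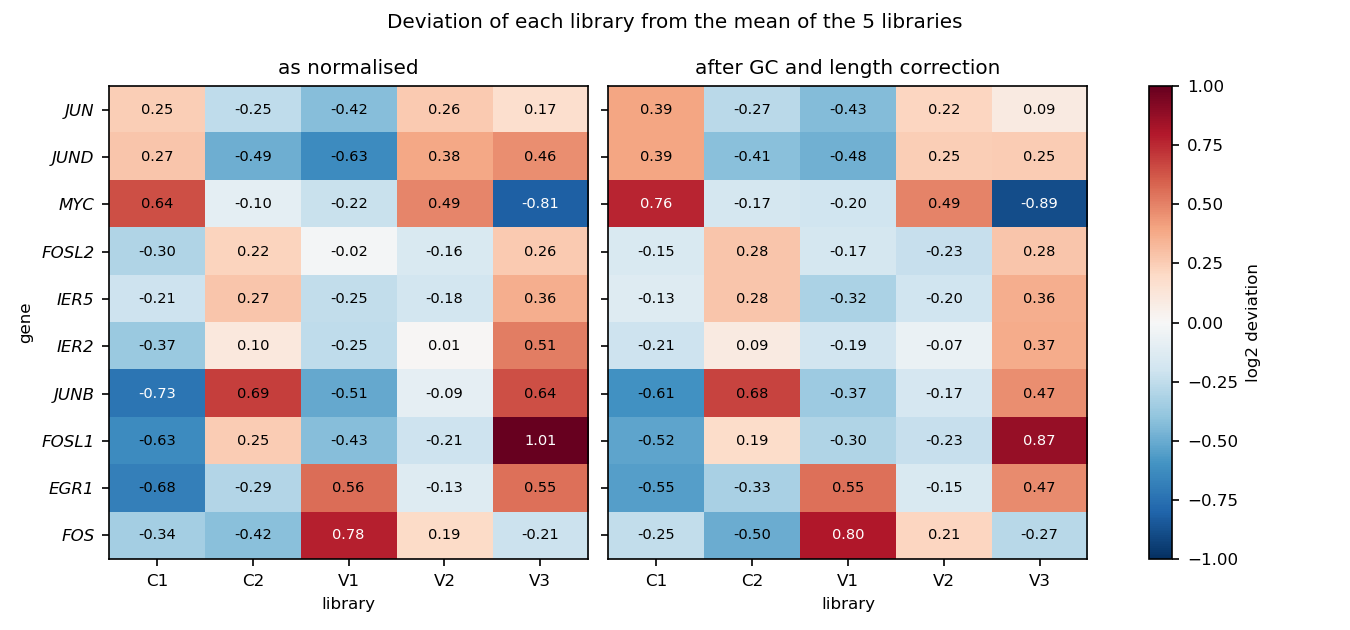
Log2 deviation of each library (columns) from the mean of the 5 libraries for each immediate early gene (rows), before (left) and after (right) the GC and length correction. JUN, JUND and MYC are positive in C1 in both panels, where the other 7 genes are negative, and FOSL1 is most positive in V3.

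The members were also compared by features that did not enter their choice. Each gene was described by 1 transcript, the longest coding one with a 3′ untranslated region where there was any. That transcript had a single exon in 5 of the 10 (JUN, JUNB, JUND, IER2 and IER5), beside 16.3% of 16560 genes with an annotated transcript. A GC content above 60%, a limit chosen after the values were seen, was found in 4 members and in 15.0% of these genes. The pentamer ATTTA of AU-rich elements, which direct rapid mRNA decay, was counted in annotated 3′ untranslated regions. MYC held 4 in 476 bases, FOS 5 in 806 bases and JUNB 2 in 500 bases, or 8.40, 6.20 and 4.0 per kb. IER2 held 0 in 1050 bases and EGR1 1 in 1234 bases. The median was 2.09 per kb over the members and 1.68 per kb over 12129 genes, and 6 of the 10 members and 58.0% of those genes held at least 2.

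The other genes of the pathway were taken from 9 lists. With edgeR's test no list had a gene past the adjusted threshold of 0.05, and the counts at an unadjusted p under 0.05 follow. For each list the share to set beside them is that of all tested genes, 7.62% in either direction and 4.11% higher. Of 38 other immediate early genes 36 were tested, with 30 above 0 and 6 below 0, and a median log2 fold change of 0.36 where all tested genes had 0.003. At an unadjusted p under 0.05 there were 4, all higher, beside 7.62% of all tested genes in either direction and 4.11% higher. CCN2, an SRF and YAP target that encodes a matrix protein, stood at 2.80 and 5.30 CPM in the Control libraries and at 11.4, 6.31 and 16.9 CPM in the variant libraries (log2 fold change 1.51, SE 0.44, edgeR adjusted p 0.616). KLF4, a Krüppel-like factor, stood at 7.52 and 17.5 against 28.1, 18.02 and 32.3 CPM (1.06, SE 0.37). In both genes Control 1 was lowest, variant 3 was highest, and variant 2 lay just above Control 2. The most abundant genes of the list were MCL1, at 193 to 255 CPM, and ID2, at 121 to 180 CPM, and both had overlapping groups.

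In this list the lowest level fell in Control 1 for 15 of 36 genes and the highest in variant 3 for 19 of 36. After the GC and length correction these counts were 15 and 16. The median deviation ran from −0.30 in Control 1 to 0.29 in variant 3, and the median log2 fold change of the list was 0.19 without variant 3, 0.20 without Control 1 and 0.46 without Control 2. Without Control 1 its count at an unadjusted p under 0.05 was 0 in place of 4, and the count over all tested genes was 549 in place of 1243. The cultures' serum, density and time of harvest are not given in the sources used here, and their part in this order was not tested.

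**Figure D5:**
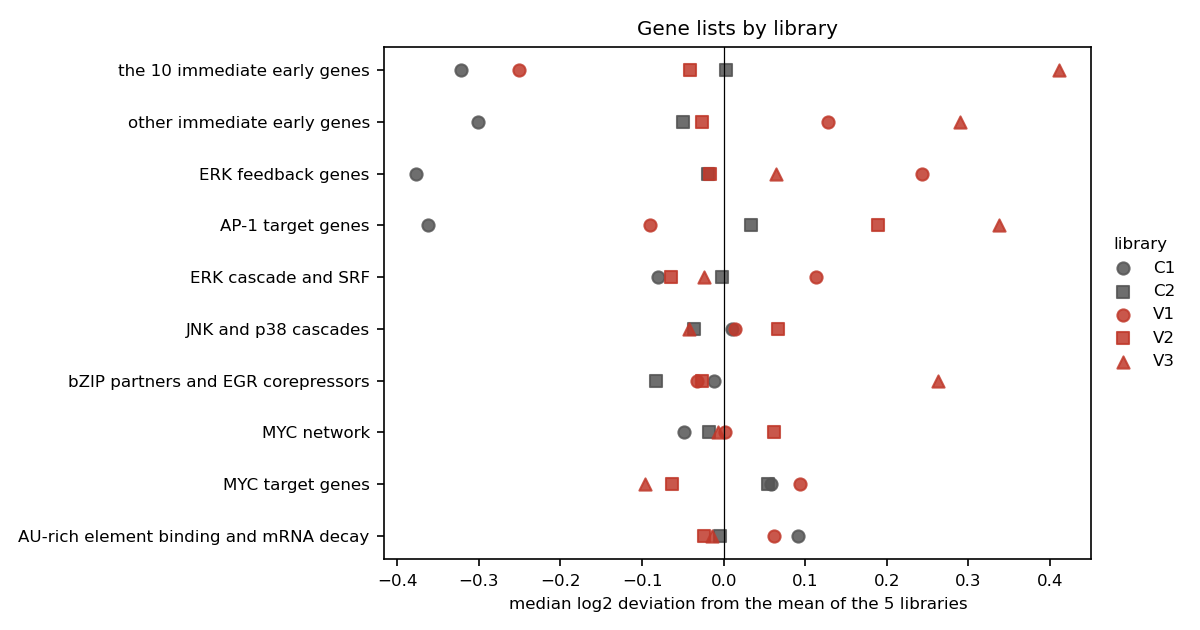
Median log2 deviation of each library from the 5-library mean (horizontal axis), without the GC and length correction. Rows are the 10 immediate early genes and 9 lists of related genes, with Control libraries in grey and variant libraries in red. C1 lies at −0.32 for the members, −0.30 for the other immediate early genes, −0.38 for the ERK feedback genes and −0.36 for the AP-1 targets, below every other library in these rows.

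The kinases and factors upstream were described from the next lists. Of the 26 genes of the Ras-ERK cascade and SRF, 14 had a log2 fold change above 0 and 12 below, with a median of 0.02 and 2 at an unadjusted p under 0.05. SRF itself, the factor that binds CArG boxes, stood at 98.2 and 95.9 CPM in the Control libraries and at 140, 140 and 125 CPM in the variant libraries. Its groups did not overlap and its log2 fold change was 0.47 (SE 0.15, unadjusted p 0.00957, edgeR adjusted p 0.616). HRAS stood at 64.6 and 62.8 against 73.5, 92.7 and 82.9 CPM (log2 fold change 0.38, SE 0.16, adjusted p 0.643). The abundant adaptor gene GRB2 stood at 237 and 244 against 193, 204 and 214 CPM, also with no overlap, and had a log2 fold change of −0.24. In this list the groups did not overlap in 3 genes higher and 3 lower in the variant, beside 11.8% and 13.0% of all tested genes. Of 15 tested genes of the JNK and p38 cascades, 8 lay above 0 and 7 below, with a median of 0.0003 and 1 at that limit, and with upper-quartile scaling the median was −0.0028. MAPK13, a p38 kinase, stood at 9.56 and 2.79 CPM in the Control libraries and at 13.8, 65.6 and 25.5 CPM in the variant libraries (log2 fold change 2.50, SE 0.86, edgeR adjusted p 0.621), and MAP2K4 had −0.20. MAPK12 and MAPK9, the most abundant of them, had −0.11 and −0.05.

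Genes that ERK signalling induces and that feed back on it had 14 of 16 tested members above 0, a median of 0.25 and 1 at that limit. The median was 0.48 without Control 2 and 0.10 without Control 1. ETV5, an ETS factor, stood at 5.95 and 11.1 CPM in the Control libraries and at 22.9, 11.8 and 14.4 CPM in the variant libraries (log2 fold change 0.94, SE 0.36, edgeR adjusted p 0.616). DUSP4, an ERK phosphatase, stood at 4.66 and 7.47 against 8.26, 7.86 and 13.8 CPM (0.72, SE 0.34). SPRED2 and CCND1, the most abundant of the list, had log2 fold changes of 0.32 and 0.23 with overlapping groups. The median deviation of this list was −0.38 in Control 1 and 0.24 in variant 1.

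Of 11 tested bZIP partners and EGR corepressors, 6 lay above 0, the median was 0.01 and 1 was at that limit. MAFG stood at 71.3 and 80.7 CPM in the Control libraries and at 103, 89.04 and 107 CPM in the variant libraries (log2 fold change 0.39, SE 0.16, edgeR adjusted p 0.627). MAFK and ATF4 had log2 fold changes of 0.45 and 0.06 with overlapping groups. Of 18 listed AP-1 target genes 10 were in the table and 9 were tested, with 8 above 0, a median of 0.24 and 1 at that limit. That median was 0.48 without Control 2, 0.14 without Control 1 and 0.10 without variant 3. CD44, a hyaluronan receptor, stood at 3.73 and 11.6 against 12.6, 16.99 and 20.2 CPM (1.11, SE 0.42, adjusted p 0.616). VEGFA, VIM and TGFB1 had log2 fold changes of 0.24, 0.32 and 0.26 with overlapping groups.

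MYC works with a network of partners, of which MAX is the best known. MAX, named after its values were seen, stood at 58.7 and 54.9 CPM in the Control libraries and at 67.6, 80.1 and 51.3 CPM in the variant libraries. Of 18 tested network genes 14 lay above 0 with a median of 0.05 and 1, MLX, at that limit. After the GC and length correction 8 lay above 0, with a median of −0.03. MLX had a log2 fold change of −0.44 (SE 0.17, edgeR adjusted p 0.616), TRRAP 0.30 and RUVBL2 0.02. Of 27 MYC target genes 11 lay above 0 and 16 below, with a median of −0.09. At that limit there were 3, all lower, beside 7.62% of all tested genes in either direction. Leaving out Control 1 gave 0 at that limit and leaving out variant 2 gave 1. The median was −0.17 without variant 1, −0.06 without variant 2 and −0.05 without variant 3. After the GC and length correction 6 lay above 0 and 21 below. LDHA stood at 694 and 628 CPM in the Control libraries and at 501, 544 and 462 CPM in the variant libraries (log2 fold change −0.40, SE 0.13, edgeR adjusted p 0.616). HSPD1 had −0.37, NCL −0.13 and ENO1 0.001. The list's median deviation was 0.06 in Control 1 and −0.10 in variant 3, the libraries with the highest and the lowest MYC. It was −0.06 in variant 2, which also had high MYC, and 0.09 in variant 1.

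Of 24 genes for AU-rich element binding and mRNA decay, 10 lay above 0, the median was −0.04 and 1 was at that limit. After the GC and length correction 15 lay above 0, with a median of 0.01. ZFP36L1, which binds AU-rich elements, stood at 26.2 and 22.3 CPM in the Control libraries and at 37.6, 44.5 and 27.96 CPM in the variant libraries (log2 fold change 0.60, SE 0.23, edgeR adjusted p 0.616). The decapping enzyme DCP2 had −0.31 (SE 0.15), and the abundant KHSRP and HNRNPD had 0.06 and −0.01.

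The genes whose pattern over the 5 libraries was most like that of MYC were sought among 10404 genes with a mean of at least 10 CPM. The measure was the root mean square difference of centred log2 CPM. The nearest was ZNF711, with a difference of 0.14 and levels of 1224, 678, 565, 867 and 345 CPM in Control 1, Control 2 and variant 1 to variant 3. CHROMR, RNF144A, NABP1 and LPIN1 followed, with differences of 0.15, 0.17, 0.17 and 0.18. Like MYC, these genes were highest in Control 1 or variant 2 and lowest in variant 3. They share only these 5 libraries with MYC, and edgeR's smallest adjusted p among them was 0.703.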

How the data were processed

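Raw counts per gene, as the authors deposited them in a table of 5 HEK293 libraries, were whole numbers with no count below 3. The submitters' processing notes name HISAT2, SAMtools and HTSeq on hg38, without versions, and the labels' protocols give TRIzol extraction and a strand-specific DNBSEQ library. Columns were matched by library name, and symbols came from the table for 16627 identifiers and from GENCODE release 29 for 46. The library name of variant 3 starts with HEK293, unlike those of the other libraries, and the labels do not say why. Genes were filtered with filterByExpr, scaled by TMM and tested with the quasi-likelihood test of edgeR 4.0.16 (R 4.3.3), with robust dispersions, group as the only term and Benjamini-Hochberg adjustment over all tested genes at 0.05. SE and intervals were derived from the F statistic. Log2 CPM used a prior count of 2. The GC and length correction used splines with 5 degrees of freedom per library. Members and gene lists were chosen with earlier results of these data known. Besides the members, the genes named were the 2 of each list with the smallest p and the 2 with the highest mean CPM, and the 5 nearest MYC in pattern, MYC being the member with the widest range among those with a mean of at least 10 CPM. One gene that this rule names is not reported here. FOSB, MAX and SIRT3 are exceptions, as are HOOK2 and the marker genes. The fits were tested on simulated data. Library pairs differed beyond sampling noise, with chi-square per degree of freedom of at least 17.3. Wilson intervals were at 95%. Alternatives were other scalings (RLE, upper quartile), other filters, DESeq2 1.42.0, limma-voom (limma 3.58.1), a replicate block, the GC and length correction, and leaving out each library.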

Additional observations from a re-analysis of the deposited data

How the results depend on the processing

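No immediate early gene passed an adjusted p of 0.05 in any of the 13 alternatives, and EGR1 and FOS stayed higher in the variant in each of them. Their groups did not overlap, so leaving out a library could not have reversed that direction. Over all tested genes DESeq2 found 31 genes and the fits that each left out 1 library found 0 to 4. The log2 fold change of every member other than EGR1 and FOS changed sign in at least 1 alternative. These included FOSL1 and MYC, at 0.41 and −0.41 in the main fit. With GC and length corrected, FOSL2 had −0.10 and JUN −0.12, and with limma-voom JUNB had 0.036. Leaving out a library gave −0.20 to 0.95 for FOSL1, −0.19 to 0.34 for FOSL2, −0.21 to 0.28 for JUN and −0.60 to 0.84 for JUNB. It gave −0.12 to 0.64 for JUND, −0.0027 to 0.50 for IER2, −0.27 to 0.21 for IER5 and −0.81 to 0.014 for MYC. The range was 0.40 to 0.93 for FOS and 0.66 to 1.06 for EGR1. In fits with 1 Control library, that library is assumed to vary like the variant libraries. With the replicate number as a block, 0 genes and 0 members passed, the median of the members was −0.07, and FOSL1 had −0.15, FOSL2 −0.050, JUN −0.080 and JUND −0.015. Only the variant group has a number 3, so with the block variant 3 did not inform the fold changes. The block fit was thus close to that without variant 3, where the median of the members was also −0.07. FOS had 0.91 with the block and 0.93 without variant 3. The labels do not say that equal numbers pair cultures, and deviations of equally numbered libraries correlated at 0.12 for number 1 and −0.113 for number 2. FOS and FOSL1 had the fewest counts, 23 to 78 a library. With the block EGR1 missed an unadjusted p of 0.05 and FOS passed it. The cause of the changes under the other alternatives was not tested.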
